A study of Mus musculus with 8 samples.

Results

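The let-7 family guide strands were examined in obstructed and contralateral mouse kidneys. The 9 members were the array entries named let-7a, let-7b, let-7c, let-7d, let-7e, let-7f, let-7g, let-7i and miR-98, chosen by name out of 611 mouse microRNAs (miRNAs) on the array, where each carries the prefix mmu. The UUO kidney group held 4 kidneys of ICR mice, an outbred laboratory stock, taken 7 days after 1 ureter had been tied off (unilateral ureteral obstruction, UUO). The control kidney group held 4 contralateral kidneys, whose own ureter was open, so the controls also came from operated animals. No label states that kidneys of a group came from separate mice, nor which obstructed and contralateral kidneys shared a mouse, so the spread behind each p-value is that between these samples and may be technical. Each sample was hybridised to its own 1-colour Agilent array after labelling 100 ng of total RNA with the dye Cy3.

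A miRNA guide strand is loaded into an Argonaute protein and pairs with messenger RNAs mainly through its seed, the bases near its 5′ end, which lowers the stability or translation of the targets. The let-7 miRNAs share 1 seed, are abundant in differentiated tissues, and are known to repress growth-associated genes such as Hmga2, Ras and Myc family members. The RNA-binding proteins Lin28a and Lin28b block the maturation of most let-7 precursors. In kidney cells let-7 miRNAs are known to target Tgfbr1, a receptor of the profibrotic factor TGF-β.

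The mature sequences are shown because all members are close to each other in sequence while their values differed in direction. All 9 matched RefSeq entries of the GRCm38.p6 build by name, the array's guide strand being the 5p entry. The sequences are written 5′ to 3′, and capitals mark the seed, bases 2 to 8.
mmu-let-7a: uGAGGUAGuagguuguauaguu
mmu-let-7b: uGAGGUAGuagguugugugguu
mmu-let-7c: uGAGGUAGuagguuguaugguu
mmu-let-7d: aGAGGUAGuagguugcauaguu
mmu-let-7e: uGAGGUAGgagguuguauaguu
mmu-let-7f: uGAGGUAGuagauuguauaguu
mmu-let-7g: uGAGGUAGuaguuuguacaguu
mmu-let-7i: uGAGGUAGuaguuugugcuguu
mmu-miR-98: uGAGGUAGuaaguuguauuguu

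All 9 sequences had 22 bases and the same seed, so the members form 1 seed group and differ only outside it. Over the 36 pairs of members, between 1 and 6 bases differed, with a median of 3. Counted from the 5′ end and with the base of let-7a first, let-7c carried A19G, let-7e U9G and let-7f G12A as its single change. let-7b carried A17G and A19G, let-7d U1A and U16C, and miR-98 G11A and A19U. let-7g carried G12U and U18C. let-7i carried the same pair of changes together with A17G and A19U, so that let-7g and let-7i differed from each other at 2 bases only, A17G and A19U.

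All 9 members were bright on every array. Each had 2 probes with 10 spots each, and after removal of outlier spots 5 to 10 spots a probe were left, 100% of them well above local background. The coefficient of variation between spots of a probe had a median of 6.66% and reached at most 16.9%. The 9 members together gave 25.7%, 26.2%, 26.5% and 24.4% of the summed mouse miRNA signal in UUO kidneys 1 to 4, against 29.7%, 24.6%, 29.0% and 29.2% in control kidneys 1 to 4. Control kidney 2 lay among the UUO kidneys in this share and the other control kidneys lay above all of them.

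Some properties of the whole arrays bear on these values. The 75th percentile signal was 514 to 1595 on UUO arrays and 417 to 582 on control arrays, so levels are given as log2 of the signal divided by that percentile, called log2 scaled signal here. In scaled signal the array of UUO kidney 2 stood apart from the other UUO arrays and was given a weight of 0.114 by limma's array weights, against 0.659 to 2.44 for the other UUO arrays. The kidney tubule markers miR-192, miR-194, miR-204, miR-10a and miR-10b were above background on all 8 arrays while miR-215 was not on any. The liver marker miR-122 and the brain marker miR-124 were at background on all arrays. The other listed brain marker, miR-9, was above background on all 8 arrays, with a mean log2 scaled signal of -4.76 in UUO and -4.65 in control kidneys. Of 3 listed pancreas markers, miR-216a and miR-217 were at background on all arrays and miR-375 was above it on some but not all. All 5 tested leukocyte markers of 7 listed were called higher by limma when UUO kidney 2 was left out, as were 20.7% of all tested miRNAs. None of the 5 passed with all 8 arrays.

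let-7g was the member that fell in UUO kidneys. Its log2 scaled signal was 3.52, 3.71, 3.54 and 3.19 in UUO kidneys 1 to 4, against 4.24, 4.03, 4.18 and 4.21 in control kidneys 1 to 4. Every UUO kidney lay below every control kidney. Its log2 change of -0.67 ± 0.15 (SE, n = 4 each) amounts to a 1.59-fold lower level, and it passed with a limma adjusted p of 0.0266. Of the 9 members this was the only call, at 1 lower and 0 higher with all 8 arrays. Of the 222 tested miRNAs 14.9% were called, 13.5% lower and 1.35% higher. In bulk tissue fewer cells of a type and less of the miRNA per cell cannot be told apart.

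The call for let-7g rested on the scaling and on most single arrays. Without scaling its log2 change was 0.21, and it was no longer called under several alternatives or when any of 6 of the 8 arrays was left out (limma adjusted p between 0.0536 and 0.101). Within slide row 1, which held kidneys 1 and 2 of both groups, the log2 change of let-7g was -0.52 and did not pass (limma adjusted p = 0.925). Within slide row 2 it was -0.83 (limma adjusted p = 0.0457), where 22.1% of the tested miRNAs were called lower and 9.01% higher. The summed log2 signal of the kidney tubule markers was 4.15 to 4.50 in UUO kidneys and 4.83 to 5.04 in control kidneys, with 2 of 5 tested markers called lower and 0 higher. The part of tubule content in the level of let-7g was not tested.

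**Figure D1:**
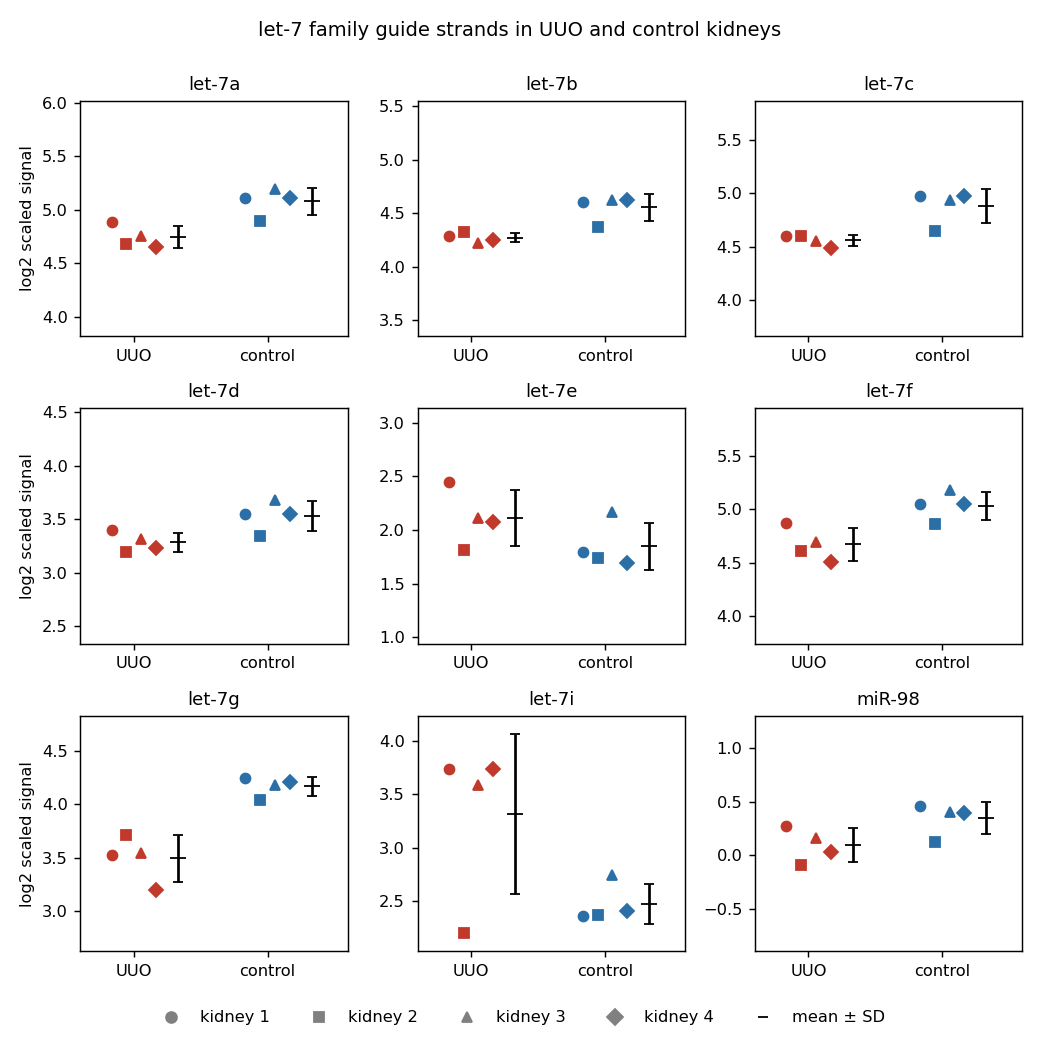
log2 scaled signal of each let-7 guide strand (vertical axis, a span of 2.2 in every panel) in UUO kidneys and control kidneys, with 1 point for each array, a marker shape for each kidney number, and the mean ± SD beside each group. In the let-7g panel all UUO kidneys lie below all control kidneys, and in the let-7i panel UUO kidneys 1, 3 and 4 lie at 3.59 to 3.74 while UUO kidney 2 lies at 2.20, below all control kidneys.

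let-7i was high in 3 of the 4 UUO kidneys. Its log2 scaled signal was 3.74, 2.20, 3.59 and 3.74 in UUO kidneys 1 to 4, against 2.36, 2.37, 2.75 and 2.41 in control kidneys 1 to 4. UUO kidneys 1, 3 and 4 lay above all control kidneys and UUO kidney 2 lay below all of them. With all 8 arrays the log2 change was 0.84 ± 0.35 (SE, n = 4 each), which did not pass the test (limma adjusted p = 0.123, 95% interval 0.038 to 1.65). Without UUO kidney 2 it was 1.22 ± 0.13 (SE, n = 3 and 4), or 2.32-fold higher, and passed with a limma adjusted p of 0.000708. The kidney left out held the lowest let-7i value, a choice that favours a larger change and a smaller p. Over all arrays left out in turn, the limma adjusted p of let-7i ran from 0.000708 to 0.279.

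Many other miRNAs passed as well once UUO kidney 2 was left out. Of the tested miRNAs 50.9% were called in that fit, 30.2% lower and 20.7% higher, and among the members let-7i was called higher and let-7g and let-7b lower. The groups then did not overlap for 56.3% of the tested miRNAs, with UUO below for 32.4% and above for 23.9%, where let-7a, let-7b, let-7c and let-7g lay below and let-7i above. Within slide row 1 the log2 change of let-7i was 0.61 (limma adjusted p = 0.925) and within slide row 2 it was 1.08 (limma adjusted p = 0.0363), where slide row 1 held UUO kidney 2. The summed log2 signal of the 7 leukocyte markers was 2.94, 0.91, 2.89 and 2.77 in UUO kidneys 1 to 4 and 0.99 to 1.44 in control kidneys. It was high in the same 3 UUO kidneys as let-7i, and the part of leukocyte content in the level of let-7i was not tested.

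let-7e was the other member with a positive value. Its log2 scaled signal was 2.45, 1.81, 2.11 and 2.08 in UUO kidneys 1 to 4, against 1.80, 1.74, 2.17 and 1.69 in control kidneys 1 to 4. The groups overlapped through control kidney 3, which lay above UUO kidneys 2, 3 and 4, while every UUO kidney lay above control kidneys 1, 2 and 4. The log2 change was 0.26 ± 0.18 (SE, n = 4 each) and did not pass the test (limma adjusted p = 0.310), with a 95% interval of -0.15 to 0.68.

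let-7a, let-7b and let-7c were low in all UUO kidneys by a small margin. let-7a, the reference sequence of the family, had a log2 scaled signal of 4.88, 4.68, 4.75 and 4.65 in UUO kidneys 1 to 4, against 5.11, 4.90, 5.19 and 5.11 in control kidneys 1 to 4. let-7b had 4.28, 4.32, 4.22 and 4.25 in UUO kidneys, against 4.61, 4.37, 4.62 and 4.62 in control kidneys. let-7c had 4.60, 4.60, 4.55 and 4.49 in UUO kidneys, against 4.98, 4.64, 4.94 and 4.98 in control kidneys. For each of the 3 the groups did not overlap, and control kidney 2 was the lowest control kidney. With let-7g, 4 of 9 members had UUO kidneys below all control kidneys, as did 21.2% of the tested miRNAs. No member had all UUO kidneys above, against 1.8% of the tested miRNAs, so that 23.0% did not overlap in either direction. The log2 changes were -0.34 ± 0.13 for let-7a, -0.29 ± 0.12 for let-7b and -0.32 ± 0.13 for let-7c (SE, n = 4 each), and none passed the test (limma adjusted p between 0.102 and 0.126).

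let-7d, let-7f and miR-98 had negative values of similar size with overlapping groups. let-7f had a log2 scaled signal of 4.87, 4.61, 4.69 and 4.51 in UUO kidneys 1 to 4, against 5.05, 4.86, 5.18 and 5.04 in control kidneys 1 to 4. Only UUO kidney 1 and control kidney 2 crossed, and the log2 change was -0.36 ± 0.14 (SE, n = 4 each, limma adjusted p = 0.102). let-7d ranged from 3.19 to 3.40 in UUO kidneys and from 3.34 to 3.68 in control kidneys, and its log2 change was -0.25 ± 0.13 (limma adjusted p = 0.211). miR-98 ranged from -0.092 to 0.27 in UUO kidneys and from 0.12 to 0.46 in control kidneys, and its log2 change was -0.25 ± 0.14 (limma adjusted p = 0.234). By limma, 6 of 9 members had an unadjusted p under 0.05, as had 81 of the 222 tested miRNAs, and their 95% intervals are shown in the plot of changes by member.

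**Figure D2:**
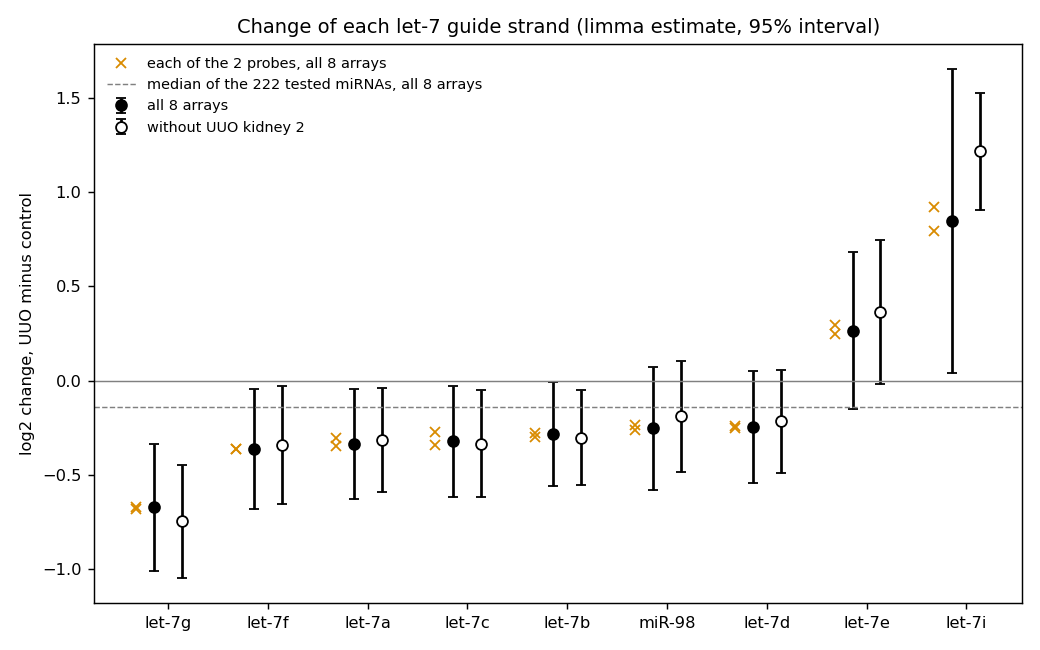
log2 change of each let-7 guide strand, UUO minus control (vertical axis), as the limma estimate with its 95% interval for all 8 arrays (filled) and without UUO kidney 2 (open). Crosses give the 2 probes of each member, the solid line marks 0 and the dashed line the median of the 222 tested miRNAs, -0.14. let-7g lies lowest, let-7i highest with an interval that narrows without UUO kidney 2, and 6 members lie between -0.36 and -0.25.

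As a group the members had a median log2 change of -0.29, and 7 of 9 lay below 0. For all 222 tested miRNAs the median was -0.14 and 58.1% were negative. Within slide row 1 the median of the members was -0.20 and within slide row 2 it was -0.38, with 7 of 9 members below 0 in both. The members ran from -0.67 for let-7g to 0.84 for let-7i. Among all tested miRNAs values reached -1.98 for miR-805 and 2.10 for miR-146b.

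Both probes of each member moved alike. In all 9 members the 2 probes had log2 changes of the same sign, and they differed from each other by 0.0012 to 0.13. The probes of let-7i gave 0.92 and 0.79, those of let-7g -0.68 and -0.67, and those of let-7e 0.29 and 0.25. The members differ at few bases, and how far a probe also binds a related member was not tested. let-7g and let-7i, which differ at A17G and A19U, had deviations of opposite sign in UUO kidneys 1, 3 and 4, at -0.64, -0.62 and -0.97 from the control mean for let-7g and 1.26, 1.12 and 1.27 for let-7i. In UUO kidney 2 both were below the control mean, at -0.45 for let-7g and -0.27 for let-7i.

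Ratios of members on the same array do not depend on a scaling factor for that array. Each of the other 8 members was therefore set against let-7a, and the groups were compared with an exact permutation test over 70 assignments, two-sided, whose smallest p is 0.0286. The log2 ratio of let-7e to let-7a was -2.44, -2.86, -2.64 and -2.57 in UUO kidneys 1 to 4, against -3.31, -3.16, -3.02 and -3.42 in control kidneys 1 to 4. Every UUO kidney, kidney 2 included, lay above every control kidney. The difference of the group means was 0.60, with SDs of 0.18 in UUO and 0.18 in control kidneys (n = 4 each, exact permutation p = 0.0286, adjusted p = 0.114 over the 8 ratios).

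The ratio of let-7d to let-7a also separated the groups, though by little. It was -1.49 to -1.42 in UUO kidneys and -1.57 to -1.51 in control kidneys, a difference of 0.09 (exact permutation p = 0.0286, adjusted p = 0.114). let-7d and let-7a have precursors in the same cluster on chromosome 13. The ratio of let-7i to let-7a was -1.15, -2.47, -1.16 and -0.91 in UUO kidneys 1 to 4, against -2.75, -2.53, -2.44 and -2.70 in control kidneys 1 to 4. UUO kidney 2 fell within the range of the control kidneys and the others lay above it. The difference was 1.18 with all arrays (exact permutation p = 0.0571, adjusted p = 0.114) and 1.53 without UUO kidney 2 (exact permutation p = 0.0286, adjusted p = 0.0571).

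let-7g lay lower against let-7a in 3 of the 4 UUO kidneys. The ratio was -1.36, -0.96, -1.21 and -1.46 in UUO kidneys 1 to 4, against -0.87, -0.86, -1.01 and -0.91 in control kidneys 1 to 4. The difference was -0.34 (exact permutation p = 0.0571, adjusted p = 0.114). The ratios of let-7b, let-7c, let-7f and miR-98 to let-7a differed between the groups by -0.025 to 0.084 (exact permutation adjusted p between 0.229 and 0.800). None of the 8 ratios passed after adjustment, and at this number of arrays at least 5 of 8 ratios would have had to reach the smallest p for any to pass. Set against each other, let-7i over let-7g had a log2 ratio of 0.21, -1.51, 0.048 and 0.55 in UUO kidneys 1 to 4, against -1.88, -1.67, -1.43 and -1.80 in control kidneys 1 to 4. This pair was chosen after its values were seen and was not tested.

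**Figure D3:**
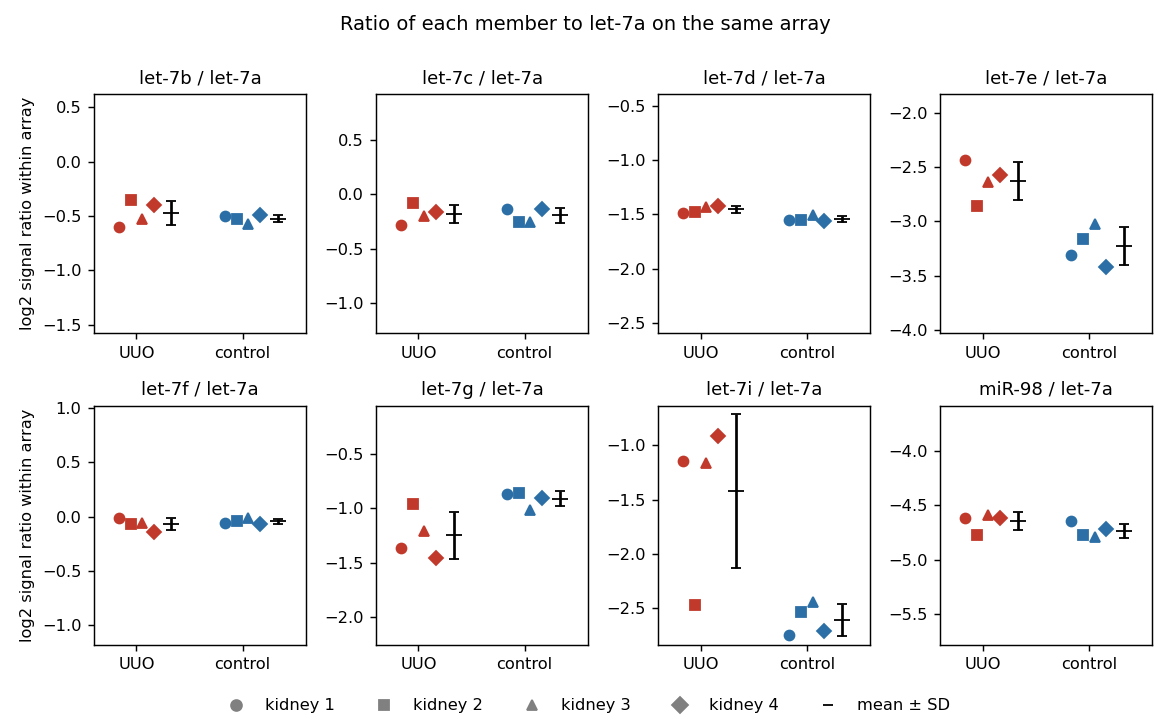
log2 ratio of each member to let-7a within the same array (vertical axis, a span of 2.2 in every panel) in UUO and control kidneys, with 1 point for each array, a marker shape for each kidney number, and the mean ± SD beside each group. On this span let-7b, let-7c, let-7d, let-7f and miR-98 keep close to the same ratio in all 8 kidneys. let-7e lies higher in all UUO kidneys and let-7i in all but UUO kidney 2.

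The precursors of the members lie at several loci, and those that share a locus could be set side by side. In the GRCm38.p6 build of RefSeq, Mirlet7d, Mirlet7f-1 and Mirlet7a-1 lie together on the minus strand of chromosome 13, and let-7a, let-7f and let-7d had log2 changes of -0.34, -0.36 and -0.25. Mirlet7c-2 and Mirlet7b lie together on chromosome 15 within the span of the long noncoding RNA gene Lncppara, and let-7c and let-7b had -0.32 and -0.29. Mirlet7f-2 and Mir98 lie together on chromosome X within the span of Huwe1, a ubiquitin ligase gene. The precursor of let-7g, at chr9:106178840-106178927 on the plus strand, lies alone within the span of Wdr82. The precursor of let-7i, at chr10:122985640-122985724 on the minus strand, has no other listed precursor within 60 kb and lies within the span of no other listed gene. let-7a, let-7c and let-7f each have precursors at more than 1 locus with the same guide strand, so the array could not tell these loci apart.

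None of 5 listed miRNAs known to lie beside a member passed limma's test with all 8 arrays, and 1 of them, miR-99a, had an unadjusted p under 0.05. miR-99a, whose precursor lies beside Mirlet7c-1 on chromosome 16, had a log2 scaled signal of 0.65, 0.52, 0.65 and 0.50 in UUO kidneys 1 to 4, against 0.85, 0.98, 0.97 and 0.96 in control kidneys 1 to 4. All UUO kidneys were below all control kidneys, and the log2 change was -0.36 ± 0.11 (SE, n = 4 each, limma adjusted p = 0.0705), next to -0.32 for let-7c. miR-125a-5p lies beside Mirlet7e on chromosome 17 within the span of Spaca6, with the let-7e precursor at chr17:17830352-17830444 on the plus strand. Its log2 change was 0.30 ± 0.21 (limma adjusted p = 0.316), next to 0.26 for let-7e, and miR-99b, of the same cluster, had 0.37 ± 0.30 (limma adjusted p = 0.404).

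miR-100 and miR-125b-5p have precursors on either side of Mirlet7a-2 on chromosome 9. Their log2 changes were 0.20 ± 0.28 and 0.14 ± 0.22 (SE, n = 4 each, limma adjusted p of 0.635 and 0.670). Without UUO kidney 2, where 50.9% of the tested miRNAs were called, 4 of these 5 neighbours rose and 1, miR-99a, fell. The values were then 0.67 for miR-99b, 0.48 for miR-100, 0.47 for miR-125a-5p and 0.36 for miR-125b-5p, against -0.34 for miR-99a (limma adjusted p between 0.0112 and 0.0385). let-7e was at 0.36 ± 0.16 in the same fit and did not pass (limma adjusted p = 0.103).

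The opposite strands of the precursors were at or near background. Of 7 such strands on the array, let-7b*, let-7c-1*, let-7f*, let-7g* and let-7i* were above background on none of the 8 arrays, and let-7a* on 2 of 4 UUO and 3 of 4 control arrays. let-7d* was above background on all arrays, with a log2 scaled signal of -2.54, -2.64, -3.20 and -3.01 in UUO kidneys 1 to 4, against -2.76, -2.16, -2.21 and -2.04 in control kidneys 1 to 4. The groups overlapped through control kidney 1, and the log2 change of -0.56 ± 0.22 did not pass (SE, n = 4 each, limma adjusted p = 0.112), with 2 of its 4 probes at the floor of the scale. miR-202-3p, whose seed is close to that of let-7, was dim, with a mean log2 scaled signal of -2.44 in UUO and -2.14 in control kidneys. Its log2 change was -0.30 ± 0.28 (SE, n = 4 each, limma adjusted p = 0.482).

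The miRNAs with the most similar profiles over the 8 arrays differed between members. Likeness was the root-mean-square difference in log2 scaled signal, each miRNA centred on its own mean over the 8 arrays, among the 213 tested miRNAs outside the family. For let-7g the nearest were miR-26b at 0.062, miR-429 at 0.064 and miR-200a at 0.11, where the median over all miRNAs was 0.52. miR-429 and miR-200a belong to the epithelial miR-200 family. The log2 changes of the 3 were -0.72 ± 0.13, -0.60 ± 0.14 and -0.72 ± 0.16 (SE, n = 4 each), and all 3 fell (limma adjusted p between 0.0172 and 0.0266), a direction that choosing them by likeness to let-7g favours.

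For let-7i the nearest were miR-350 at 0.12, miR-674* at 0.18 and miR-21, a miRNA widely described in fibrosis, at 0.20, against a median of 0.77. All 3 had low values in UUO kidney 2, a pattern that choosing them by likeness to let-7i favours. With all 8 arrays their log2 changes were 0.68 ± 0.37, 0.56 ± 0.36 and 0.81 ± 0.46 (SE, n = 4 each), and none passed (limma adjusted p between 0.230 and 0.279). For let-7a the nearest were miR-26a at 0.071, miR-196b at 0.090 and miR-23b at 0.095, against a median of 0.44. miR-26a was at -0.38 ± 0.11 (limma adjusted p = 0.0621). Among the members themselves, let-7a, let-7b, let-7c, let-7d, let-7f and miR-98 lay within 0.041 to 0.12 of each other. let-7i lay 0.45 from let-7e and 0.95 from let-7g, its nearest and its farthest member.

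**Figure D4:**
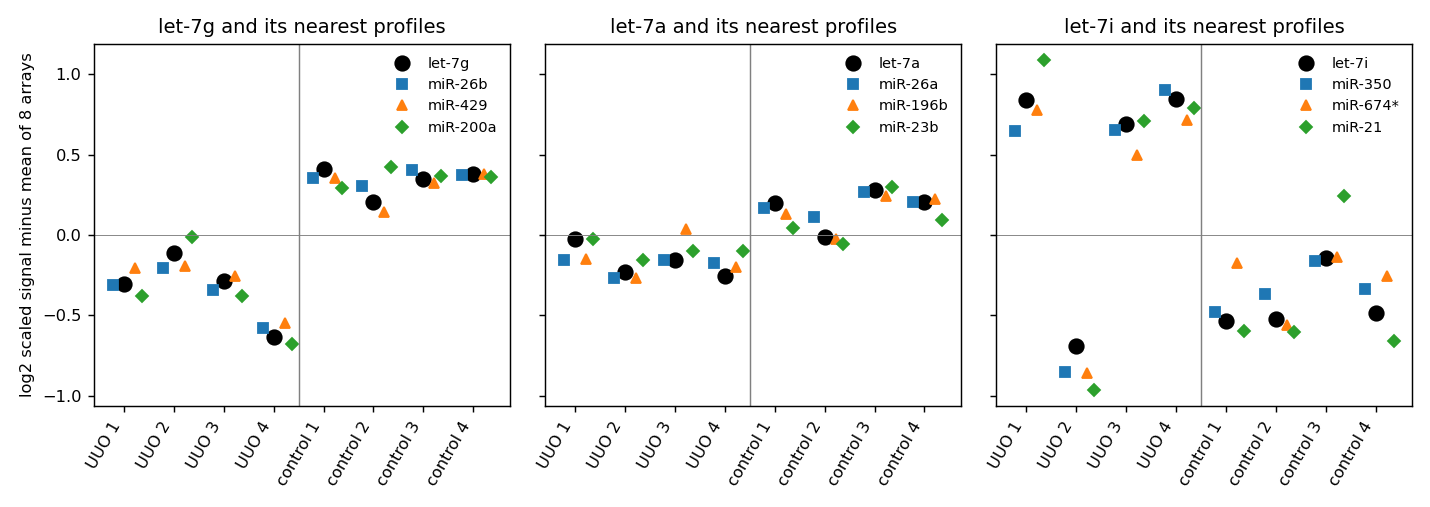
log2 scaled signal minus each miRNA's mean over the 8 arrays (vertical axis) for let-7g, let-7a and let-7i (black circles) and the 3 tested miRNAs outside the family nearest to each, by array. The let-7g panel separates UUO from control kidneys, and in the let-7i panel UUO kidney 2 lies low for all 4 miRNAs. Choosing the 3 by likeness over these same arrays favours such shared patterns.

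The sign of 7 of the 9 changes depended on the scaling. Without scaling the tested miRNAs had a median of 0.74, and all 9 members lay above 0, from 0.21 for let-7g to 1.73 for let-7i (limma adjusted p between 0.0867 and 0.758). With normexp background correction that median was -0.62 and all 9 members lay above that median, let-7g by 0.072 and let-7i by 1.53. With quantile normalization let-7g was at -0.36 and let-7i at 1.09, and 4 of 9 members lay below the median of all tested miRNAs. let-7g kept the lowest value and let-7i the highest of the members under all 6 scaling and background settings plotted by setting.

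**Figure D5:**
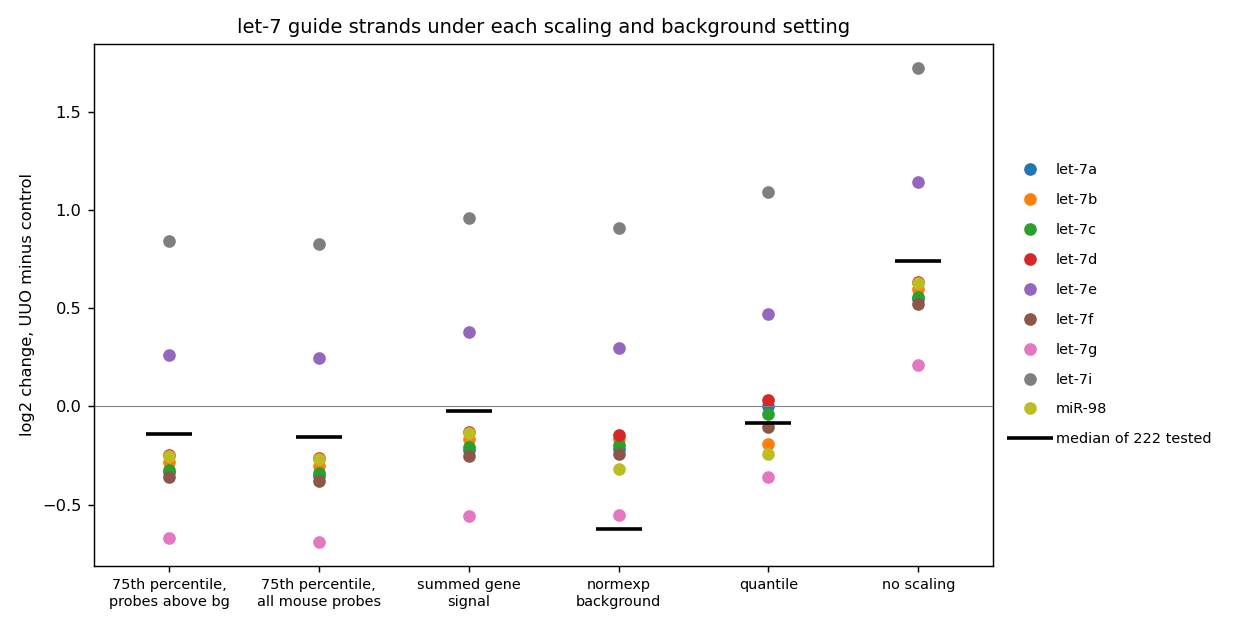
log2 change of each let-7 guide strand, UUO minus control (vertical axis), under 6 scaling and background settings, with a black bar for the median of the 222 tested miRNAs under the same setting. let-7i is the highest and let-7g the lowest member in every column, while the position of the members relative to 0 and to the bar changes between columns.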

How the data were processed

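The deposited scanner files hold background-subtracted intensity values per spot. Per the file headers they came from Agilent Feature Extraction 10.7.3.1, while the submitters' processing notes name 10.1.1. No scaling between arrays was found in them. The authors' series matrix held the same intensity values. The deposited marks of 0 or 1 per spot (outlier, well above background) were used as given. All 8 arrays lay on 1 slide with 1 scan, per the file headers.

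Spots of a probe were averaged without outlier spots (2.34% to 3.52%), and signals were divided, array by array, by the 75th percentile of the 371 mouse probes above background throughout. Probes of a miRNA were summed, floored at 0.0213 and put on the log2 scale. Tests covered the 222 miRNAs above background on every array of a group, with limma 3.58.1 in R 4.3.3 (lmFit, eBayes, two-sided, Benjamini-Hochberg over all 222, called at an adjusted p under 0.05). The fit was tested on simulated data, and the permutation test was checked on fixed values with a known result. Tables used Python 3.11.15 and pandas 2.3.3.

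The members, the lists of neighbours, opposite strands and markers, and the tests were chosen with earlier results of these data known. Named miRNAs were the members, those lists, and for let-7a, let-7g and let-7i the 3 nearest profiles. Number of arrays and signal limit the precision.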

Additional observations from a re-analysis of the deposited data

Results flagged for a closer look

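In 6 of 48 groups of 4 arrays the farthest kidney stood apart by more than 0.829 of the range of its group. For a single group chance flags about 1 in 20. The groups share arrays and members, so the count of flagged groups cannot be set against that rate. The log2 scaled signal of let-7i was 2.20 in UUO kidney 2, far below the other UUO kidneys, and its log2 ratio to let-7a there was -2.47. The log2 ratio of miR-98 to let-7a was also low in UUO kidney 2, at -4.77. Among control kidneys, kidney 2 was low for let-7b at 4.37 and for let-7c at 4.64, and kidney 3 was high for let-7i at 2.75.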

How the results depend on the processing

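let-7g kept a negative log2 change in every alternative but no scaling, and let-7i and let-7e kept a positive one in all. The 30 miRNAs called lower and 3 called higher by limma became 0 and 0 with normexp, with the percentile over all mouse probes, with a replicate block and within slide row 1, 2 and 1 with quantile normalization, 17 and 0 with no filter on dim miRNAs, 84 and 54 with array weights, and 49 and 20 within slide row 2. No scaling gave 0 lower, summed gene signal gave 1 lower, and keeping only miRNAs above background on all 8 arrays gave 1 higher. At an unadjusted p under 0.05 there were 81 with the chosen setting, 54 with normexp, 56 with the percentile over all probes, 67 with the replicate block and 1 within slide row 1. Leaving out each array in turn gave 0 to 67 lower and 0 to 46 higher, both highest without UUO kidney 2.

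Of the members, 1 lower and 0 higher became 0 lower with normexp, quantile normalization, the percentile over all probes, no scaling, summed gene signal, the replicate block and within slide row 1. With array weights 5 were lower and 2 higher, within slide row 2 1 was higher, and leaving out each array gave 0 to 2 lower and 0 to 1 higher. The limma adjusted p of let-7g was 0.0801 with the replicate block and 0.00302 to 0.101 over the arrays left out, and it passed only without UUO kidney 2 and without control kidney 2. The replicate numbers were not taken as pairs, since no label states that they mark a mouse. Same-numbered kidneys had correlated deviations (r over 0.1) in 2 of 4 pairs, with r from -0.35 to 0.62. Of the 8 samples, 3 correlated best with their own number. With 4 pairs that also shared a slide row, these values cannot decide whether the numbers mark a mouse.

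Signs turned without scaling for let-7a (0.54), let-7b (0.60), let-7c (0.56), let-7d (0.63), let-7f (0.52), let-7g (0.21), miR-98 (0.63), miR-99a (0.52), miR-202-3p (0.58) and let-7d* (0.32). They turned with quantile normalization for let-7a (0.0040) and let-7d (0.031), and with normexp for miR-99b (-0.075) and miR-100 (-0.33). miR-202-3p was at 0.30 with outlier spots kept and with the series matrix. Of the log2 ratios to let-7a, quantile normalization gave -0.20 for let-7b, -0.045 for let-7c and -0.24 for miR-98, normexp gave -0.11 for miR-98, and outlier spots kept or the series matrix gave -0.0045 for let-7c. Leaving out arrays gave -0.020 to 0.047 for let-7c and -0.045 to 0.00090 for let-7f. None of the 8 ratios passed under the 17 alternatives run for them. These did not include the blocks, array weights, slide rows or filters on dim miRNAs. No scaling, the percentile over all mouse probes and a lower floor leave these ratios unchanged by construction. Outlier spots kept and the series matrix gave the same values as each other, so the alternatives are not all separate checks. The causes were not tested.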
